A study of Mus musculus with 4 samples.

Results

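The 10 genes described here, Mat2b, Hmmr, Nudcd2, Ccng1, Pttg1, Slu7, Pwwp2a, Rnf145, Clint1 and Thg1l, lie around Mir146, the gene of the microRNA miR-146a, on mouse chromosome 11. Every probe set annotated with 1 gene symbol that was 1 of these names was taken, which gave 28 probe sets for 10 of 18193 named genes, of 45037 probe sets in all. The genes were chosen by their position and with earlier genotype differences in these data known. Their genotype differences are therefore given as a description, and the adjusted p-values printed are those of a fit across the whole array.

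All cells were CD4 T cells of 2D2 transgenic mice, which carry a T cell receptor specific for a myelin oligodendrocyte glycoprotein peptide. Naive cells were sorted and stimulated for 3 days with plate-bound anti-CD3 at 5 µg/ml and with anti-CD28 at 1 µg/ml. The wildtype group held 2 arrays and the miR-146a-deficient group 2 arrays, each named a biological replicate, with no statement of separate mice or cultures. The background strain label is 2D2 Tg for both groups, and the age and sex of the mice and the construction of the deficient allele are not given in the sources used here. P-values thus measure the spread between these samples, which may be technical.

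miR-146a restrains signalling from Toll-like and IL-1 receptors and from the T cell receptor to NF-kB, and it acts by pairing of its seed with target transcripts. The flanking genes have unrelated duties. Pttg1 and Hmmr act in mitosis, Ccng1 is a p53 target, Slu7 and Thg1l act on RNA, Pwwp2a binds chromatin, Mat2b supports methionine use, Clint1 and Rnf145 work on internal membranes, and Nudcd2 is a co-chaperone of the NudC family. Genes that lie close together on a chromosome tend to be inherited together.

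The 5p mature strand of miR-146a is shown because the deficient cells are labelled miR-146a-deficient. Its seed, bases 2 to 8, is in capitals. The 3p mature strand of the same gene is not shown. Sequences are from RefSeq, build GRCm38.p6. The 5p strand lies at chr11:43374435-43374456 on the minus strand.
mmu-miR-146a-5p: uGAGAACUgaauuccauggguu
No probe set is named for Mir146, and the loss of the microRNA could not be checked on these arrays.

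Hmmr and Nudcd2 are read in opposite directions from neighbouring starts. Their promoter windows, each running from 250 bases before to 50 after the gene's start, overlap by 277 bases. The window of Hmmr (chr11:40733388-40733687, minus strand, GRCm38.p6) is shown because probe sets of both genes differed between the genotypes. Capitals mark CCAAT and the cell cycle homology region TTTGAA, searched on both strands, with no base in both motifs.
Hmmr window: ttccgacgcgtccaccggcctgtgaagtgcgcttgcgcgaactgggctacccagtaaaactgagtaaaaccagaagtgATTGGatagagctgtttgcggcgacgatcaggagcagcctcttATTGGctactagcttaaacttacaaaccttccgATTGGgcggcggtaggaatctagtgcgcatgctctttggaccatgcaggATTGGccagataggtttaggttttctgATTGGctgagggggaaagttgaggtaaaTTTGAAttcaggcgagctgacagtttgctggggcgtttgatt
The Hmmr and the Nudcd2 window each hold 5 matches to CCAAT and 1 to TTTGAA. Of all 32851 windows of 300 bases, 0.271% hold 5 or more matches to CCAAT, 37.4% hold at least 1, 17.9% hold TTTGAA and 6.95% hold both motifs. Windows were matched for 8 of the 10 genes, and not for Slu7 and Clint1. These 8 genes had 11 windows, 3 of Rnf145 and 2 of Thg1l, so the counts by gene that follow cannot be set against the shares of windows above. CCAAT stood in at least 1 window of 6 genes, for Thg1l in 1 of 2. TTTGAA stood in at least 1 window of 4, namely Mat2b, Hmmr, Nudcd2 and Rnf145, for Rnf145 in 1 of 3. The shared bases of Hmmr and Nudcd2 count their motifs for both genes. The Pttg1 window held neither.

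Array signals were close in scale: median signals ran from 48.6 to 57.7 over the 4 arrays, and log2 signals correlated across probe sets with r from 0.981 to 0.984 for pairs of arrays. Of 10 T cell markers, 9 were measured, and their summed signals were 60580 and 70090 in the wildtype and 63781 and 68647 in the deficient arrays. Cd3d, a chain of the T cell receptor complex, ran from 16065 to 17736, and Cd4 from 462 to 725. Of 9 B cell markers, 8 were measured, with summed signals of 5451 and 8100 against 15251 and 15733. All 7 tested stood apart higher, beside 14.2% of all probe sets tested. Of these, 3 rose past the threshold, beside 0.148% of all probe sets tested. Pax5 lay below the filter on dim probe sets and went the other way, with 68.9 and 23.9 against 11.3 and 21.9. Of 8 myeloid and dendritic markers, summed at 590.0 and 552 against 714 and 848, 5 were tested, 2 above and 3 below 0. The 1 that rose was Cybb, with 53.6 and 56.8 against 285 and 352, while Lyz2 and Adgre1 stood apart lower. Of 6 NK and CD8 markers, 5 were measured, summed at 1168 and 1316 against 1374 and 1930. None of the 4 tested passed, while all 4 lay above 0 and 3 stood apart higher, with a median difference of 0.66. The control ratio of 3' to 5' signal was lower in the deficient arrays for the transferrin receptor (2.40 and 2.74 against 1.92 and 2.23). For Gapdh the groups all but met (0.778 and 0.808 against 0.746 and 0.778), and for beta-actin they overlapped. The part of these in the values below was not tested. In bulk samples fewer cells of a type and less RNA per cell cannot be told apart.

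Signals are MAS5 values on a linear scale, and differences are log2(signal + 14.7), deficient minus wildtype, ± SE from limma's moderated fit. Over all 27022 probe sets tested, 45 passed an adjusted p of 0.05 in that fit, 40 higher and 5 lower. Of the 28 member probe sets, 26 reached the filter on dim probe sets. This was set on the mean of log2(signal + 14.7) over all arrays, at the log2 value of a signal of about 29.9. Among these 26, 3 passed, 1 higher and 2 lower, beside 0.167% of all probe sets, or 0.148% higher and 0.0185% lower. The 3 belong to 3 genes, Pttg1, Hmmr and Nudcd2, and no probe set of the other 7 genes passed. All 3 calls were lost with no filter on dim probe sets (limma, adjusted p = 0.124, 0.0604 and 0.209 for Pttg1, Hmmr and Nudcd2). There the dim probe sets enter both the variance fit and the adjustment. Which of these lost the calls was not tested. The calls were also lost without the intensity trend (limma, adjusted p = 0.549, 0.510 and 0.621). In both settings the differences were as before. Wildtype and deficient signals stood apart without overlap for 15 of the 26, higher for 9 and lower for 6, beside 34.1% of all probe sets, or 14.2% higher and 20.0% lower. Since the members were chosen with this contrast known, nothing is read from either count. With 2 arrays against 2, an exact permutation test of 1 probe set cannot go below p = 0.333 (two-sided).

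**Figure D1:**
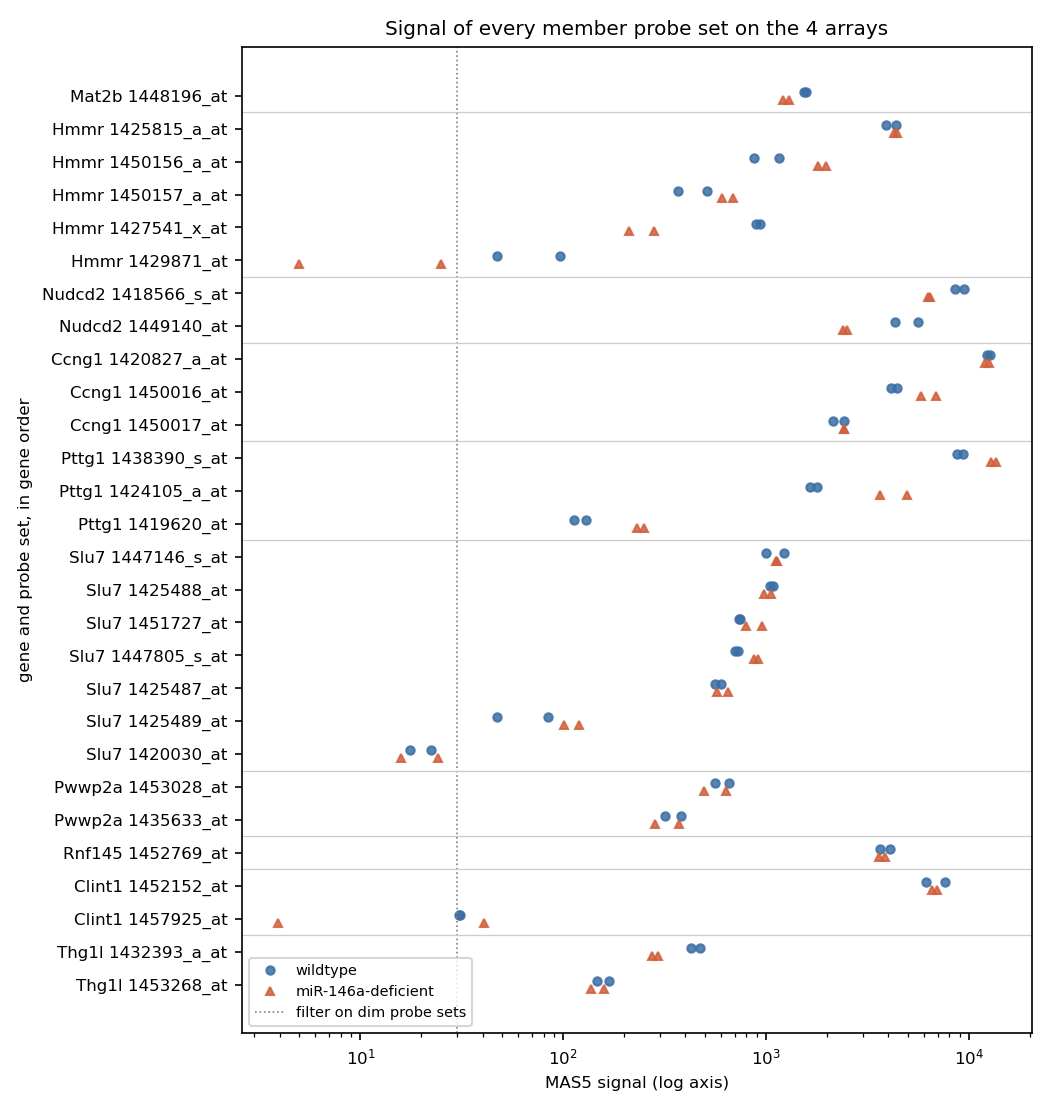
MAS5 signal (log axis) of the 28 probe sets of the 10 genes on each array, with wildtype arrays as circles and deficient arrays as triangles, genes in chromosomal order. All 3 Pttg1 rows have the deficient arrays to the right, both Nudcd2 rows have them to the left, and the 5 Hmmr rows show both patterns. The dotted line is the filter on dim probe sets, in signal.

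Pttg1, the nearest of the 10 to Mir146, was higher in the deficient cells on all 3 of its probe sets. It encodes securin, which holds back separase until chromosomes are ready to part. On probe set 1424105_a_at the wildtype arrays read 1775 and 1642 and the deficient arrays 3639 and 4929. The genotypes were far apart and the deficient arrays also differed from each other, with means of 1709 ± 94 and 4284 ± 912 (SD, n = 2). This probe set rose by 1.30 ± 0.15, a 2.47-fold change on the scale with the pseudocount (limma, adjusted p = 0.0177). On 1438390_s_at the wildtype arrays read 8749 and 9325 and the deficient arrays 12806 and 13596. The difference here was 0.55 ± 0.09 and did not pass (limma, adjusted p = 0.110). Among 14 alternative settings, this probe set itself passed in 1, without wildtype replicate 2 (0.59), which leaves 1 wildtype array. The mean of the gene's probe sets (0.92) also passed, but it is a value of the gene that includes 1424105_a_at. On 1419620_at the signals were 130.0 and 113 against 232 and 251, a difference of 0.91 ± 0.20 that did not pass. Groups did not overlap on any of the 3, and the sizes ranged from 0.55 to 1.30. The 3 probe sets are linked to 3 different sequence records.

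In the platform's naming, the ending _a_at marks a probe set shared by transcripts of 1 gene, _s_at one that can read transcripts of several genes, and _x_at one with some probes that may match unrelated sequence. The brightest Pttg1 probe set, used for the comparison with other genes, is thus of the _s_at kind. The 3 genes whose log2 values, centred over the 4 arrays, lay closest to it were 6820431F20Rik, Ankrd9 and AU015791, with root mean square distances of 0.00993, 0.0274 and 0.0313. 6820431F20Rik read 251 and 274 in the wildtype and 377 and 399 in the deficient arrays. With 4 arrays such closeness is a description.

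Hmmr probe sets went in opposite directions. Hmmr encodes the hyaluronan-mediated motility receptor, which also binds spindle microtubules. On 1427541_x_at the wildtype arrays read 893 and 933 and the deficient arrays 280.4 and 210.2. The genotypes lay well apart, and the probe set fell by 1.85 on the log2 scale (SE 0.17; limma, adjusted p = 0.00532). On 1450156_a_at the order was the reverse, with 1159 and 869 in the wildtype and 1972 and 1792 in the deficient arrays. That difference was 0.90 ± 0.15 and did not pass (limma, adjusted p = 0.106). It passed in 4 of 12 alternative settings. Among these were the fits without wildtype replicate 1 (1.10) or wildtype replicate 2 (0.69), with 1 wildtype array left each time. The others were median centring (0.98; limma, adjusted p = 0.0160) and the replicate number as a block (limma, adjusted p = 0.0210).

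The other 3 Hmmr probe sets also differed among themselves. On 1425815_a_at, the brightest, the wildtype arrays read 4358 and 3881 and the deficient arrays 4400 and 4268, a difference of 0.08 ± 0.10 with overlapping groups. On 1450157_a_at, linked to the same sequence record as 1450156_a_at, signals were 511 and 368 against 685 and 606. This was a difference of 0.56 ± 0.18 that did not pass, with groups apart and in the same direction as its companion. On 1429871_at the wildtype arrays read 96.3 and 47.2 and the deficient arrays 5.0 and 24.9, all close to background. Its difference of -1.57 ± 0.49 did not pass, and it reached the filter through the wildtype arrays, so a lower deficient value was built into its selection. Of the 5 probe sets, 2 lay apart higher, 2 lay apart lower and 1 overlapped. The 2 lower ones were 1427541_x_at, of the kind that may match unrelated sequence, and the dim 1429871_at.

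**Figure D2:**
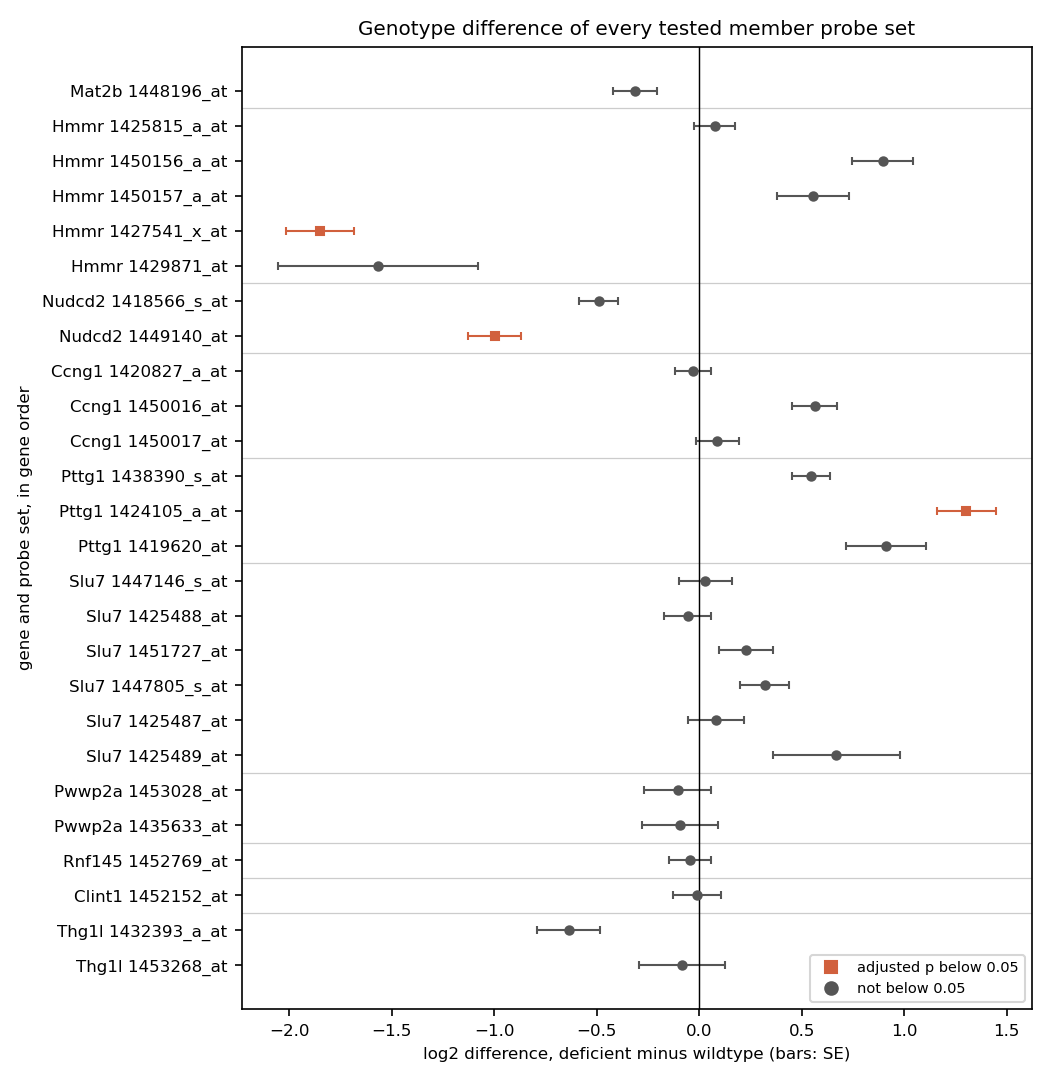
Log2 difference, deficient minus wildtype, of each of the 26 tested probe sets, with bars of 1 SE from the fit across the array. The Hmmr rows run from -1.85 to 0.90, the Pttg1 rows from 0.55 to 1.30, and the rows of Pwwp2a, Rnf145 and Clint1 lie close to 0. Squares mark the 3 probe sets with an adjusted p below 0.05.

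Genes that work beside Pttg1 and Hmmr in mitosis lay close to 0. Of 30 listed genes of chromosome separation and the spindle, 29 were measured and 28 tested. None passed in either direction, beside 0.172% of the 12821 genes tested on their brightest probe set. The median difference was 0.05, beside -0.01 over those genes. Differences ran from -0.18 to 0.18. Nuf2, a kinetochore gene, had the smallest p, with 2125 and 1950 against 1715 and 1890 (difference -0.18 ± 0.11). Tpx2, which activates Aurora kinase A on the spindle, followed with 1860 and 1691 against 2180 and 1856, groups that overlapped (0.18 ± 0.12). This list was read on the brightest probe set of each gene. On theirs, Hmmr lay within its range and Pttg1 above it. Of the further probe sets, both of Pttg1 and 2 of Hmmr lay above that range. The other 2 of Hmmr lay below it, among them the dim 1429871_at, which reached the filter through the wildtype arrays.

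Nudcd2 was lower in the deficient cells on both of its probe sets. It encodes a NudC domain protein that works with Hsp90 and with the dynein regulator Lis1. On 1449140_at the wildtype arrays read 5593 and 4300 and the deficient arrays 2401 and 2495, means of 4947 ± 915 and 2448 ± 67 (SD, n = 2). This probe set fell by 1.00 on the log2 scale (SE 0.13; limma, adjusted p = 0.0355). The call was lost without deficient replicate 1 (-0.97, adjusted p = 0.124) or deficient replicate 2 (-1.03, adjusted p = 0.146), each leaving 1 deficient array. On 1418566_s_at the signals were 9419 and 8486 against 6442 and 6286. Here too the groups stood apart, with a difference of -0.49 ± 0.09 that did not pass (limma, adjusted p = 0.191). It passed in 1 of 14 alternative settings, without wildtype replicate 2 (-0.56), which leaves 1 wildtype array. The 2 probe sets are linked to the same sequence record and differed in size by 0.51. Of 11 other genes of the NudC family and of dynein, all were measured and tested, none passed, and the median difference was 0.02. Dync1li1, a dynein light intermediate chain, had -0.37 ± 0.17 and Dync1i2, an intermediate chain, 0.12 ± 0.10.

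Ccng1 read differently on 1 of its 3 probe sets. It encodes cyclin G1, a transcriptional target of p53. On 1450016_at the wildtype arrays read 4436 and 4136 and the deficient arrays 5816 and 6910. The groups were apart, with a difference of 0.56 ± 0.11 that did not pass (limma, adjusted p = 0.200). It passed in 1 of 12 alternative settings, without wildtype replicate 1 (0.61), which leaves 1 wildtype array. On 1420827_a_at the arrays read 12668 and 12291 against 11972 and 12503, and on 1450017_at 2419 and 2131 against 2425 and 2406. Both of these overlapped, at -0.03 ± 0.09 and 0.09 ± 0.11, although all 3 probe sets are linked to the same sequence record. Of 21 other p53 response genes, 20 were measured and tested and none passed. Their median difference was 0.10, beside -0.01 over the 12821 genes tested on their brightest probe set, with 18 above and 2 below 0. The share of all genes above 0 was not counted, and nothing is read from these signs. Perp, a p53 target in cell death and adhesion, had 881 and 689 against 1041 and 1364 (0.60 ± 0.17), and the death receptor gene Fas 898 and 847 against 1014 and 1341 (0.41 ± 0.15).

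Slu7 had the most probe sets, 7, linked to 4 sequence records. It encodes a splicing factor of the second catalytic step, which joins exons. Of 6 tested, 5 lay above and 1 below 0 (all above with median centring), and none passed. Groups stood apart on 3, all higher in the deficient arrays. The clearest was 1447805_s_at, with 699.8 and 724 in the wildtype and 875 and 909 in the deficient arrays, a difference of 0.32 ± 0.12. On 1451727_at the arrays read 734 and 743 against 949 and 793 (0.23 ± 0.13). On 1425489_at they read 47.2 and 84.3 against 120.2 and 100.4, the largest Slu7 difference, at 0.67 ± 0.31, and a dim one. The remaining tested probe sets, 1447146_s_at, 1425488_at and 1425487_at, overlapped, with differences of 0.03, -0.06 and 0.08. The probe set 1420030_at, between 15.9 and 24.2, lay below the filter and overlapped too. Of 15 other spliceosome genes of the catalytic steps, all were tested, none passed, and the median was 0.02. Dhx38, an RNA helicase of the second step, had the smallest p at -0.60 ± 0.34 with overlapping groups, and Isy1 followed at 0.19 ± 0.11.

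Thg1l, which adds the extra guanosine to histidine tRNA, was lower on 1 of its 2 probe sets. On 1432393_a_at the wildtype arrays read 469.8 and 428 and the deficient arrays 273 and 294. The groups were apart, with a difference of -0.64 ± 0.15 that did not pass (limma, adjusted p = 0.377). On 1453268_at the arrays read 169 and 146 against 159 and 137, and overlapped (-0.08 ± 0.21). Among 14 other genes of tRNA processing, all tested, none passed and the median was -0.01. Trmt61a, a tRNA methyltransferase subunit, had 0.30 ± 0.14 and the tRNA nuclease gene Elac2 had 0.20 ± 0.16.

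Mat2b had 1 probe set, on which the deficient arrays were slightly lower. It encodes the regulatory subunit of the methionine adenosyltransferase that makes S-adenosylmethionine. The wildtype arrays read 1531 and 1576 and the deficient arrays 1209 and 1289. The groups were apart by a small margin, with a difference of -0.31 ± 0.11 that did not pass (limma, adjusted p = 0.772). Of 13 other genes of the methionine cycle and polyamine synthesis, 9 were measured and tested; Mat2a, which encodes the catalytic partner, was not among them. None passed, with a median of -0.01. Odc1, the first enzyme of polyamine synthesis, had 0.17 ± 0.10 and Shmt1, a folate enzyme, had -0.15 ± 0.11.

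Pwwp2a, Rnf145 and Clint1 showed overlapping groups on every probe set. Pwwp2a, a reader of H2A.Z nucleosomes, had 654 and 558 against 495 and 636 on 1453028_at, and 317 and 380.1 against 370.4 and 284 on 1435633_at. The differences, -0.10 ± 0.16 and -0.09 ± 0.18, were nearly the same. Rnf145, a sterol-responsive ubiquitin ligase of the endoplasmic reticulum, read 3657 and 4080 against 3865 and 3619 (-0.05 ± 0.10). Clint1, an adaptor that links clathrin to membranes of the trans-Golgi network, read 6135 and 7574 against 6578 and 6973 on 1452152_at (-0.01 ± 0.12). Its probe set 1457925_at, between 3.9 and 40.8, lay below the filter. All 4 tested differences lay below 0, and each was smaller than its SE. With median centring Rnf145 and Clint1 lay above 0, at 0.04 and 0.07, and each of the 4 changed sign when some single arrays were left out.

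The partner lists of these 3 genes held no probe set that passed. Of 18 listed genes of H2A.Z and the NuRD complex, 16 were tested, with a median difference of -0.01; Ep400 and Chd4, which encode chromatin remodelling ATPases, had 0.28 ± 0.14 and 0.23 ± 0.14. Of 16 sterol regulation genes, 12 were tested, with a median of -0.07; the cholesterol exporter gene Abcg1 had 0.27 ± 0.13 and Nr1h3, a sterol receptor gene, had -0.55 ± 0.31. Of 16 clathrin adaptor genes, 15 were tested, with a median of 0.04; the adaptor subunit genes Ap1s1 and Ap1g1 had 0.19 ± 0.11 and -0.20 ± 0.12.

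The disagreement among Hmmr probe sets was the widest of any named gene in the main setting. Over 5826 genes with at least 2 tested probe sets, the gap between the highest and the lowest difference had a median of 0.26 and a 95th percentile of 0.94. Hmmr had a gap of 2.74, and no other gene had one as wide, including the 255 genes with 5 tested probe sets. With a pseudocount of 1, where its gap was 2.81, 3 genes had a wider one, and so did 5 without deficient replicate 1 (gap 2.87). Without wildtype replicate 2 or deficient replicate 2, the lower end of the gap came from the dim 1429871_at. With that probe set left out, the Hmmr gap in those settings was 2.51 and 2.62, and 6 and 4 genes had a wider one. With all 4 arrays the gap of 2.74 did not involve it. The lower end of that gap was 1427541_x_at, of the kind that may match unrelated sequence. Genes with 1 probe set at 0.5 or more and another at -0.5 or less numbered 29, or 0.498%, and Hmmr was among them. The gaps of Pttg1, Slu7, Ccng1, Thg1l and Nudcd2 were 0.76, 0.73, 0.59, 0.55 and 0.51. Gaps at least as wide occurred in 9.32%, 10.2%, 15.8%, 18.0% and 21.1% of the 5826 genes, which differ in their number of probe sets. Among genes with as many tested probe sets, the counts were 154 of 1472, 28 of 114, 263 of 1472, 405 of 3329 and 481 of 3329. Pwwp2a, at 0.01, had probe sets closer than nearly all. Of the 7 members with at least 2 tested probe sets, signs were mixed in 3 (Hmmr, Ccng1 and Slu7) and the same in 4 (Pttg1, Nudcd2, Pwwp2a and Thg1l). Of all such genes, whatever their number of probe sets, 55.8% were mixed. Signs close to 0 did not hold: with median centring Ccng1 and Slu7 were no longer mixed (lowest differences 0.05 and 0.03), and Ccng1 was not without deficient replicate 1. Thg1l became mixed with centring and without wildtype replicate 1 or deficient replicate 2, with highest differences of 0.00097, 0.01 and 0.01. Pwwp2a became mixed when any 1 of the 4 arrays was left out. Hmmr stayed mixed, and Pttg1 and Nudcd2 of 1 sign, under each of these settings, which were applied to gaps and signs after seeing the data.

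**Figure D3:**
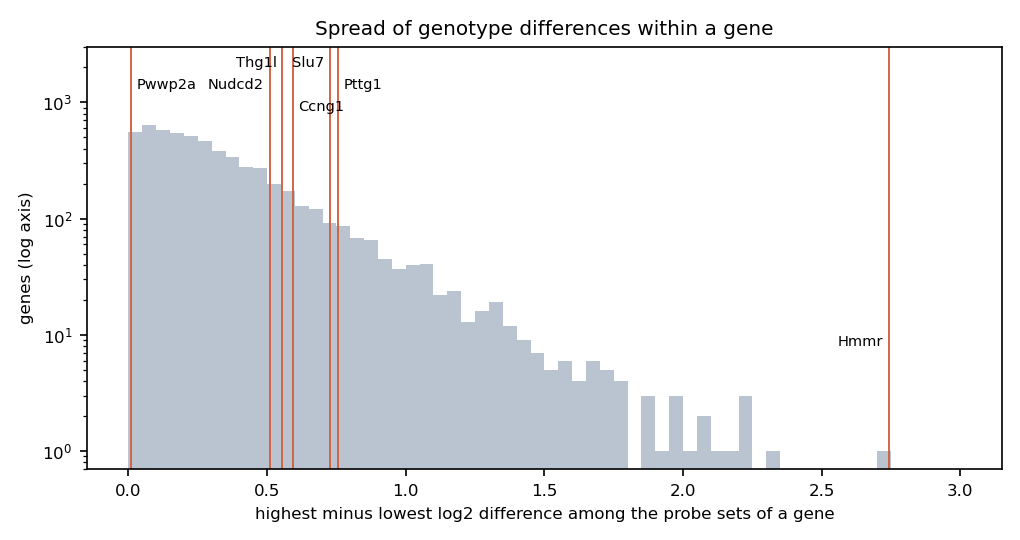
Histogram of the gap between the highest and the lowest log2 difference among the tested probe sets of each of 5826 genes, with genes on a log axis and the 7 members with more than 1 tested probe set as vertical lines. Hmmr, at 2.74, stands beyond every other gene at a pseudocount of 14.7 with all 4 arrays, and the other 6 lie at 0.76 or below.

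In gene order, counting genes with a named probe set, 4 of the members lie before Mir146 and 6 after it. Mat2b, Hmmr, Nudcd2 and Ccng1 are neighbours of each other, 7 to 4 places before it. Pttg1 and Slu7 are 1 and 2 places after it, followed by Pwwp2a at 6, Rnf145 at 11, Clint1 at 14 and Thg1l at 16. The probe sets that passed before Mir146, 1 each of Hmmr and Nudcd2, were lower in the deficient arrays, and the 1 that passed after it, of Pttg1, was higher. Probe sets of the members that did not pass lay on either side of 0, both before and after Mir146.

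Genes near the members were taken by position only. Between Mat2b and Thg1l lie 13 further genes with a named probe set, of which 6 were tested, none passed and 2, Ebf1 and Lsm11, differed by 0.5 or more. On the outer side of Mat2b 13 of the next 25 were tested and none passed, and none differed by 0.5 or more. On the outer side of Thg1l 18 of 25 were tested, 1 fell and 4 differed by 0.5 or more in either direction. Over all 12821 genes tested, 8.63% differed by 0.5 or more. The median size of the difference was 0.31 over the 6 genes between Mat2b and Thg1l, 0.10 outside Mat2b and 0.27 outside Thg1l, beside 0.12 over all genes. The 6 include the dim genes Adra1b (0.46 ± 0.55) and Ebf1. On brightest probe sets, the median size was 0.09 over the 10 members. On these it was 0.16 over all 16 tested genes from Mat2b to Thg1l, members included. None of the 3 member probe sets that passed is the brightest of its gene. Over all 26 tested member probe sets the median size was 0.32, beside 0.14 over all 27022 probe sets tested. The members were chosen with this contrast known, and nothing is read from these medians.

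The gene that fell was Timd2, a surface receptor gene of the TIM family, 28 places after Mir146. Its arrays read 1170 and 1734 in the wildtype and 117 and 117 in the deficient group (-3.45 ± 0.20; limma, adjusted p = 0.000861), and its other probe set gave -3.96. The next in size did not pass. Ebf1, a transcription factor gene of B cells, read 39.7 and 43.0 against 84.8 and 88.7, a difference of 0.86 ± 0.29, beside B cell markers that were higher too. Lsm11, a gene of histone mRNA processing next to Thg1l, read 1277 and 1269.6 against 1089 and 655 (-0.58 ± 0.21), and its other probe set gave -0.59. Havcr2 and Havcr1, further TIM family genes, were dim and overlapped, at -0.74 ± 0.46 and -0.54 ± 0.52.

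**Figure D4:**
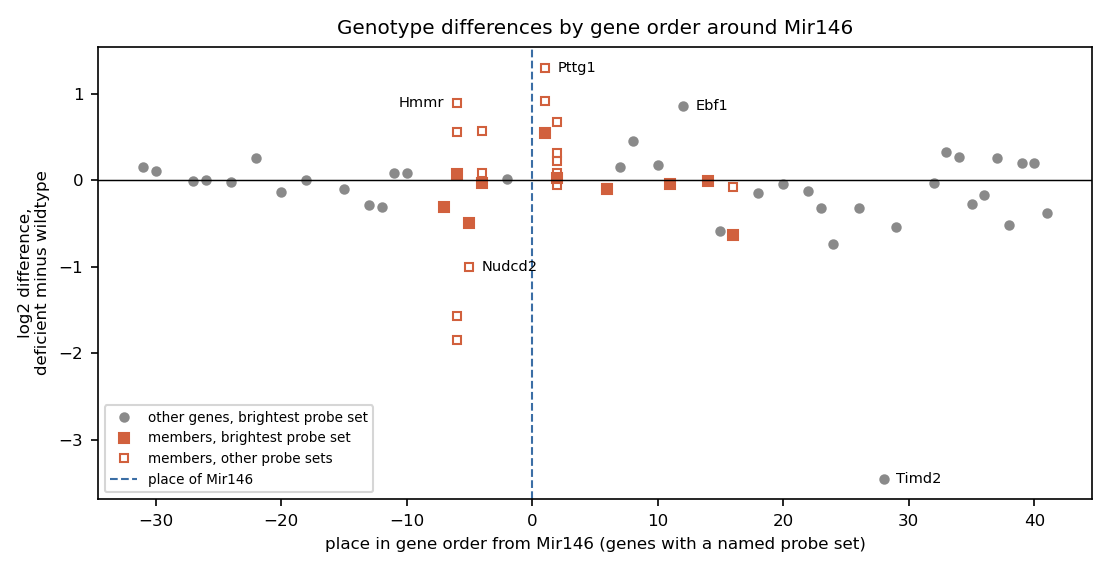
Log2 difference, deficient minus wildtype, against place in gene order from Mir146 (dashed line), for tested genes with a named probe set. Members are squares, filled for the brightest probe set and open for the others, and other genes are grey circles. Timd2, at -3.45, lies farthest from 0, followed by open squares of Hmmr at -1.85 and -1.57 and of Pttg1 at 1.30. The square at -1.57 is the dim 1429871_at, which reached the filter through the wildtype arrays.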

How the data were processed

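RNA of 4 CD4 T cell samples was labelled with biotin from 100 ng and hybridised to Mouse Genome 430 2.0 arrays. The values the authors deposited are MAS5 signals, a linear intensity for each probe set; per the submitters' processing notes MAS5 and the Transcriptome Analysis Console were used. The 2% trimmed mean is 500 on each array, so values were already scaled; the number of arrays limits precision. Detection calls were not used here.

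Of 45101 probe sets, 64 controls were left out; 34945 have 1 symbol in the platform annotation, 932 several and 9160 none. Signals were taken as log2(signal + 14.7), the 25th percentile of all values. The 40% of probe sets with the lowest mean log2 value were set aside and the other 27022 fitted in limma (version 3.58.1; R 4.3.3) by lmFit and eBayes with an intensity trend. Two-sided p-values were adjusted by Benjamini-Hochberg across these probe sets, with a threshold of 0.05. The fit, checked on simulated data, had 8.39 degrees of freedom. Gene order is that of GRCm38.p6.

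The members and lists were chosen with earlier results of these data known. Named were every member probe set, the 2 genes with the smallest p of each list, the 5 neighbours with the largest difference and the 3 genes closest to Pttg1. Alternatives covered pseudocount, filter, normalization, variance prior, replicate block, probe set choice, threshold and each array left out. Figures were drawn with matplotlib 3.10.9.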

Additional observations from a re-analysis of the deposited data

How the results depend on the processing

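Of 27022 probe sets, 45 passed (40 higher, 5 lower); in limma 1472 had an unadjusted p under 0.05. With no filter 4 passed (2 and 2), with median centring 88 (80 and 8), with the replicate number as a block 71 (64 and 7), with the brightest probe set of each gene 23 (22 and 1) and with their mean 14 (13 and 1). Limma without the intensity trend called 0. Leaving out 1 array gave 29 to 140 (21 to 103 higher, 6 to 37 lower), with 1 array left in that genotype, assumed to vary like the pair of the other. Member probe sets that passed numbered 3; 0 without a filter, without the trend or with the brightest probe sets, 1 with means (Pttg1, 0.92, adjusted p = 0.0360), 4 with median centring or the replicate block, and 2 to 6 without 1 array. The added probe set under the block and under centring was Hmmr 1450156_a_at (limma, adjusted p = 0.0210 and 0.0160). Same-numbered arrays share only a number; their deviations correlated with r = 0.04 across probe sets. The causes were not tested. No called member probe set changed direction.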
